A study of Rattus norvegicus with 15 samples.

Results

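RNA from Rat1a cells carrying K149R MYC was compared with RNA from Rat1a cells carrying K158R MYC. The comparison used the 6 libraries whose titles name the mutants R149 and R158, 3 per line, out of 15 libraries in the series, and all genes of the rat Ensembl annotation in the count tables. Rat1a is an immortalized rat fibroblast line, which the labels describe as normal primary fibroblasts. Both lines stably expressed mouse MYC with 1 lysine replaced by arginine, the substitution K149R in the line R149 and K158R in the line R158, and were grown attached in high-glucose medium with serum. The remaining libraries, 3 each, came from lines with empty vector (EV), unmutated mouse MYC (WT) or MYC with the substitution K323R (R323), and were used to place the levels seen in the 2 mutants. Each construct stood for a single stable line on top of the host's own rat Myc gene, and the sources used here do not give the vector, its promoter or whether a line was a clone or a pool. A difference between R149 and R158 therefore cannot be told apart from a difference between the 2 established lines.

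MYC is a transcription factor that dimerizes with MAX through a helix-loop-helix leucine zipper at its C terminus and binds E-box DNA. It raises genes of growth and ribosome production and lowers many others, among them genes of adhesion and extracellular matrix in fibroblasts. Acetyltransferases such as p300 and GCN5 acetylate MYC on several lysines. The lysines replaced in K149R and K158R lie close together in the central part of the protein, outside the DNA-binding domain. Arginine is positively charged like lysine but takes no acetyl group. The comparison asked which RNAs differed when one or the other of these neighbouring lysines was replaced.

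The 3 R149 libraries held 36989944, 43427689 and 108933235 counts and the 3 R158 libraries 13303631, 29344836 and 16872494. The tables identify genes by Ensembl identifier only, and 0 of the 32545 identifiers could be paired with a symbol. Genes are therefore described as groups, and 4 identifiers are followed by value, so that no function, chromosomal position or sequence is given for any of them. For the same reason the level of Myc and the markers of fibroblasts and of other cell types were not examined. R149 replicate 1 stood apart: with every library thinned to the same total, 13677 genes had at least 1 count in it, against 14871 to 15636 in the other 14 libraries. Replicate 1 was also the lowest library of every other line (EV 15384, WT 14871, R158 15056 and R323 15079), by a smaller distance. Replicates 2 and 3 of all lines lay between 15340 and 15636. R149 replicate 1 also correlated less well with its own line (r of log2 CPM across genes 0.972 and 0.973) than R149 replicates 2 and 3 did with each other (0.997). In R158 the 3 correlations lay between 0.982 and 0.989.

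Most RNAs were measured at similar levels in R149 and R158, and the differences that were called ran mainly one way. Of 13676 genes tested, 174 (1.27%) differed at an adjusted p below 0.05 (edgeR quasi-likelihood test, Benjamini-Hochberg). Of these, 137 genes (1% of those tested) were lower in R149 and 37 (0.271%) were higher. By at least 2-fold, 92 genes differed (0.673%), 76 lower and 16 higher in R149. By at least 4-fold, 29 were lower and 8 higher, and by at least 8-fold 19 were lower and 3 higher. No added standard is described, so a fold change is relative to the remaining RNA of its library. The 137 lower genes had log2 fold changes from -9.23 to -0.38 with a median of -1.06, the 37 higher genes from 0.42 to 7.06 with a median of 0.87, and the median over all genes tested was -0.01. In each of the 174 genes the libraries of the 2 lines did not overlap. Over all genes tested, R149 lay below R158 without overlap in 8.62% and above it in 5.35%.

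**Figure D1:**
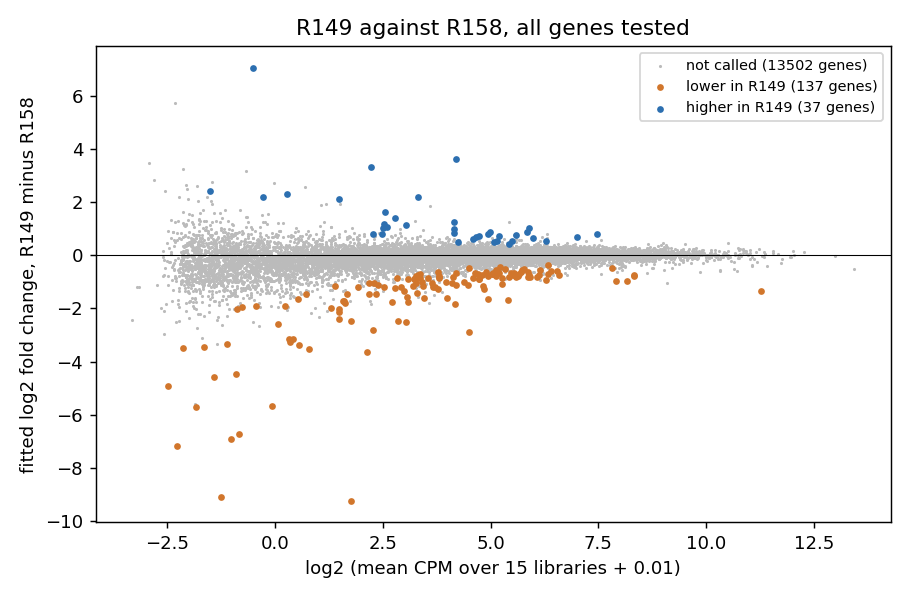
Fitted log2 fold change of R149 minus R158 (vertical axis) against the log2 of the mean CPM over 15 libraries (horizontal axis), 1 point per gene tested. The 137 genes lower in R149 extend to -9.23 and the 37 higher genes to 7.06, and the largest differences lie at the left, where counts are few.

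For all genes tested, called or not, the fit gave bounds. The 95% interval of the fold change lay within 2-fold in either direction for 79.4% of genes tested and within 1.5-fold for 58.7%. The precision followed the number of counts. In the quartile of genes with fewest counts (median 1.06 CPM, a count rescaled to one total for every library) the interval had a median half-width of 0.92 log2 units, and 39 genes were called lower and 5 higher, all by at least 2-fold. In the quartile with most counts (median 126 CPM) the half-width was 0.27, and 15 genes were lower and 3 higher in R149, only 1 of them by at least 2-fold. Quartiles 2 and 3 held 47 and 36 lower and 15 and 14 higher genes. No difference under 2-fold was thus called in the lowest quartile at this depth.

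The number of genes depended on how replicates were treated, and genes lower in R149 were the majority throughout. In their deviations from the line means, R149 and R158 libraries of equal number correlated at 0.39, 0.13 and 0.14. Replicates 2 and 3 correlated more strongly across numbers (0.31 and 0.34), so only replicate 1 paired best by number. A fit that took replicate number as a block called 381 genes (2.79%), 289 lower and 92 higher in R149. All 174 genes were among them, and the 207 further genes had a smaller median difference, 0.66 log2 units in size against 1.03. Replicates 2 and 3 of every line, fitted without replicate 1, gave 627 genes, 487 lower and 140 higher, among them 165 of the 174. Replicate 1 on its own offers 1 library against 1 and no test. Its median difference between R149 and R158 was -1.07 log2 units over the 137 lower genes, beside -0.95 for replicate 2 and -1.04 for replicate 3, and 0.89, 0.98 and 0.90 over the 37 higher genes. These genes were called from the same libraries without overlap between the lines, so each replicate number had to show the called direction. Leaving out R149 replicate 2 or 3 gave 69 and 83 genes, and leaving out R158 replicate 1, 2 or 3 gave 108, 97 and 93. Without R323 replicate 3, a library of neither mutant, 91 genes were lower. Without R149 replicate 1, 141 genes were called, 111 lower and 30 higher. In all 28 alternatives between 69% and 83.5% of called genes were lower in R149.

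**Figure D2:**
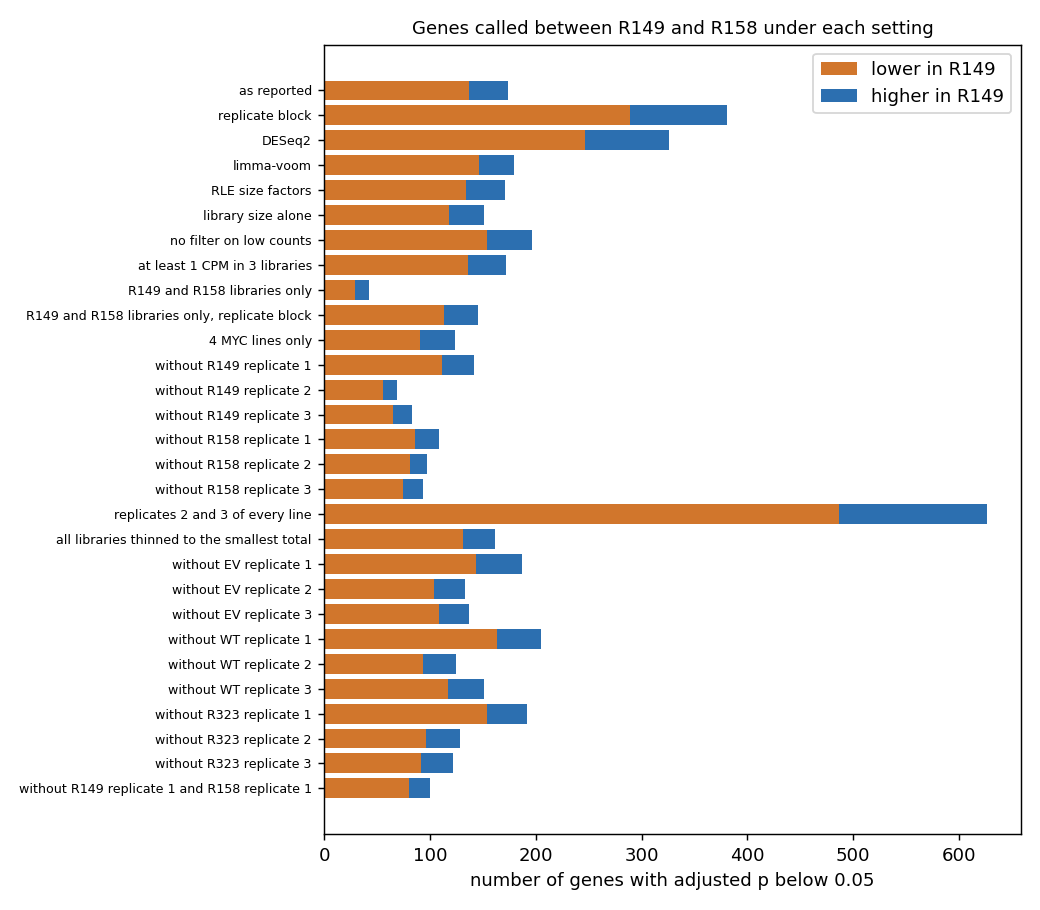
Number of genes called between R149 and R158 (horizontal axis, adjusted p below 0.05) under the reported fit and 28 alternatives (vertical axis), split into genes lower and higher in R149. The lower genes are the majority in every bar, from 29 of 42 genes with the 6 libraries alone to 487 of 627 with replicates 2 and 3.

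Among genes with at least 1 CPM in the higher line, the 2 largest fitted falls were those of ENSRNOG00000051360 and ENSRNOG00000038115, whose order changed between fits. ENSRNOG00000051360 was present in R158 and almost without counts in R149. The R149 libraries held 0, 1 and 0 counts (0, 0.023 and 0 CPM), and the R158 libraries 68, 210 and 65 counts (5.34, 7.41 and 3.78 CPM). The counts of a line were summed, 343 against 1, and scaled by its normalized library totals. By this measure the level in R158 was 1093 times that in R149. The 95% interval of this ratio, 195 to 43280, covers counting error only, and the edgeR adjusted p was 2.85e-07. WT stood above both mutants, at 10.6, 11 and 9.08 CPM. The difference of R158 minus WT was not called (log2 fold change -0.88, edgeR adjusted p 0.231). EV (0.303, 0.764 and 0.698 CPM) and R323 (0.733, 0.758 and 0.664 CPM) stood between R149 and R158. This RNA was thus high in 2 of the 4 MYC lines, near the EV level in R323, and at the edge of detection in R149.

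ENSRNOG00000038115 was found in R158 alone. Its R158 libraries held 14, 74 and 42 counts (1.1, 2.61 and 2.44 CPM), while the 3 R149, 3 WT, 3 EV and 3 R323 libraries held 0. Over the R149 libraries together a count of 0 allows up to 3 counts, or 0.0162 CPM, and against that limit R158 was at least 138-fold higher. Counting error in R158 as well puts the lower end of the 95% interval at 111-fold. The edgeR adjusted p was 0.00584, within a range of 9.07e-05 to 0.53 over 28 alternatives. The 0.53 came from DESeq2, the only one of them that did not call the gene. With 0 counts elsewhere, the gene passed the filter on low counts only through the 3 R158 libraries. Its entry into the test thus depended on the same values that the test compares.

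Among genes called higher in R149, ENSRNOG00000026918 had the largest fitted difference. The R149 libraries held 184, 69 and 169 counts (5.2, 1.59 and 1.58 CPM) and the R158 libraries 0, 1 and 0. Summed to 422 counts against 1 and scaled by normalized library totals, the level in R149 was 132 times that in R158. The 95% counting interval was 23.7 to 5245 and the edgeR adjusted p was 0.0019. R149 replicate 1 was high within its line, but the other 2 R149 libraries also exceeded every library of the other lines. WT stood at 0.299, 0.618 and 0.767 CPM, and the 6 EV and R323 libraries at 0.142 CPM or less. The difference of R149 minus WT was not called (log2 fold change 2.32, edgeR adjusted p 0.0605).

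ENSRNOG00000019358 was higher in R149 than in R158 by a log2 fold change of 3.63 ± 0.48 (SE, edgeR adjusted p 0.00132). R149 stood at 14.8, 15.6 and 15.6 CPM and R158 at 2.36, 0.705 and 1.05 CPM. The R149 values were close to each other and did not overlap with those of R158. EV was higher than any MYC line, at 38.8, 77.4 and 86.3 CPM, WT stood at 11.5, 3.65 and 4.99, and R323 was lowest at 0.564, 0.903 and 0.427 CPM. All MYC lines were thus below EV, R149 least so by level. The difference of R149 minus WT was not called (log2 fold change 1.18, edgeR adjusted p 0.189).

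**Figure D3:**
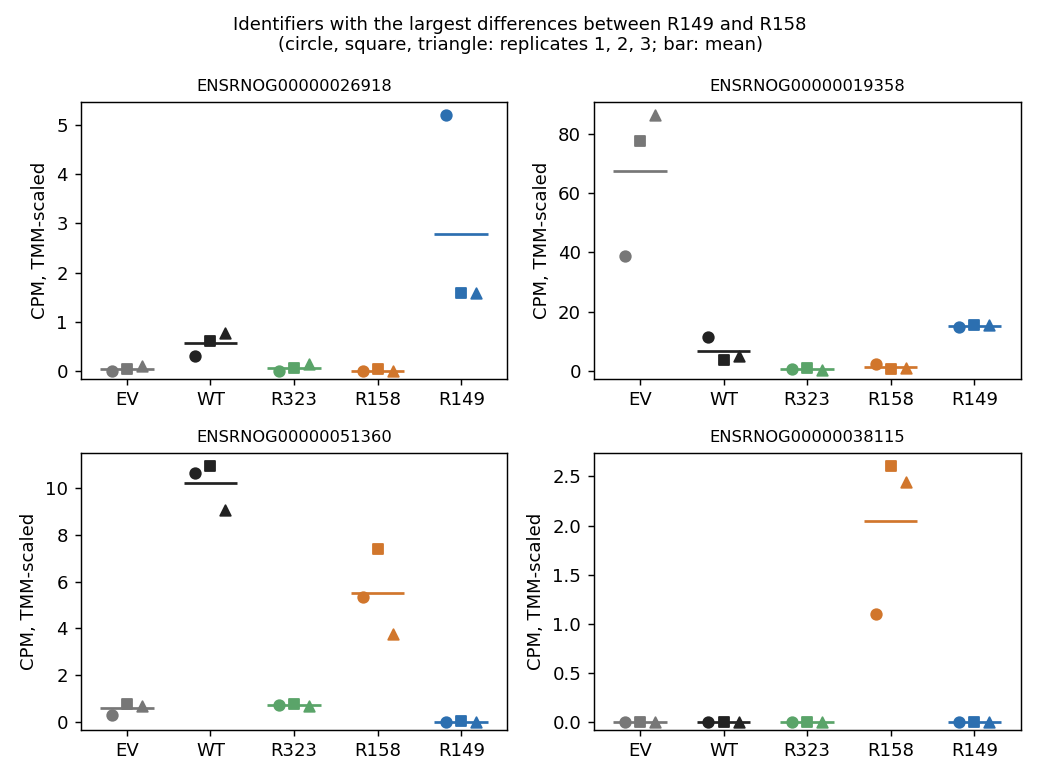
Level in CPM (vertical axis, 1 linear scale per panel) of the 4 identifiers in every library, by line (horizontal axis), with points for replicates and a bar for the mean of 3. ENSRNOG00000038115 is above 0 in R158 alone, and ENSRNOG00000051360 is highest in WT, intermediate in R158 and near 0 in R149.

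Differences of presence and absence were few. With a limit set after the values were seen, 6 genes had a mean of at least 1 CPM in R158 and stayed under 0.1 CPM in every R149 library, and 1 gene had the reverse pattern. All 7 were called, beside 1.27% of all genes tested. They were chosen from the same values that the test compares, so their calls add no support. Of the 6 genes, 3 were under 0.1 CPM in every WT library as well, 3 in every EV library and 2 in every R323 library. The limit of 0.1 CPM stood for different numbers of counts in libraries of different size. A level of 3 counts was 0.236, 0.106 and 0.174 CPM in the R158 libraries and 0.085, 0.069 and 0.028 CPM in the R149 libraries. These numbers of genes thus cannot be compared between lines. Among the 137 lower genes, 3 had 0 counts in R149. Their fitted folds depend on a prior count, and placing them at their bounds left the median at -1.06 and the 8-fold count at 19.

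The 137 genes lower in R149 had a median level below EV in all 4 MYC lines, and R149 was the lowest. Relative to the mean of EV, the median gene of this group stood at -1.62, -1.48 and -1.42 log2 units in the R149 libraries. It stood at -0.40, -0.36 and -0.42 in the R158 libraries. Of the lines that had no part in this contrast, 2 lay between, WT at -0.69, -0.63 and -0.55 and R323 at -1.04, -0.93 and -0.97, and EV lay above R158. The genes were chosen for the distance between R149 and R158, which itself favours a position between them. The order from high to low was thus EV, R158, WT, R323 and R149, and no line's libraries overlapped with those of the next. The share of counts these genes held followed the same order, from 0.591% ± 0.05 of all counts in R158 through 0.449% ± 0.027 in WT and 0.416% ± 0.023 in R323 to 0.309% ± 0.022 in R149, and EV had 1.58% ± 0.15 (SD, n = 3). A single gene made up 0.881% of EV counts. Without it the other 136 held 0.695% ± 0.013 in EV, 0.452% ± 0.021 in R158, 0.366% ± 0.016 in WT, 0.325% ± 0.021 in R323 and 0.255% ± 0.017 in R149.

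R149 replicate 1 was the lowest R149 library for 57.7% of the 137 genes, against 46.9% of all genes tested, and its part in the group was not tested beyond the fit without it. Gene by gene, the WT mean was nearer to R158 for 85 of the 137 and nearer to R149 for 52. The R323 mean was nearer to R149 for 90 and nearer to R158 for 47. The EV mean was at or above that of R158 for 90 of the 137. In 43 of them the 3 R149 libraries were below all 12 others, a pattern that 1.25% of all genes tested had. In 22 the 3 R158 libraries were above all 12 others (0.431% of all genes tested). By being called lower, the 137 already had R149 below R158, which meets part of either pattern. The shares over all genes lack that condition, so the counts cannot be read against them. The remaining 72 had neither pattern, so that both lines stood within the range of the others or only in part outside it.

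The 37 genes higher in R149 showed another order of the lines. Their median gene stood at 0.69, 0.79 and 0.78 log2 units above the EV mean in R149 and at -0.01, -0.09 and -0.28 in R158. WT (0.33, 0.36 and 0.49) and R323 (0.23, 0.29 and 0.34) lay between the 2 mutants and overlapped with each other. On the median, R158 was thus the line near EV in this group, and R149 was furthest from it. Gene by gene, the EV mean was nearer to R158 for 23 and nearer to R149 for 14. In 18 of the 37 genes R149 was above all 12 other libraries (0.746% of all genes tested) and in 10 R158 was below all 12 (0.263%), with 9 in neither pattern. Here too the call itself met part of either pattern, so these counts cannot be read against the shares over all genes. The WT mean was nearer to R149 for 20 and to R158 for 17, the same split as for R323. These genes held 0.141% ± 0.0051 of counts in R149 and 0.0829% ± 0.0058 in R158 (SD, n = 3).

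**Figure D4:**
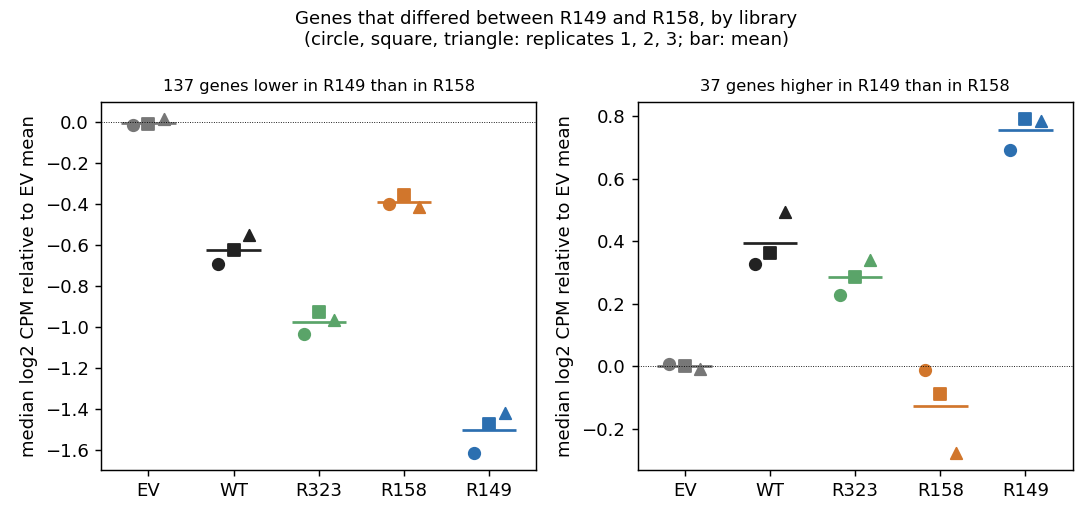
Median log2 CPM relative to the mean of EV (vertical axis) over the 137 genes lower and the 37 genes higher in R149 than in R158, for each library by line (horizontal axis), with bars for the mean of 3. R149 and R158 were used to choose the genes, which itself favours a position of other lines between them. WT and R323 lie between them, with R323 at -0.98 ± 0.055 and WT at -0.62 ± 0.071 in the left panel (SD, n = 3), where EV lies above R158.

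Many genes that differed between R149 and R158 were also called against EV in the MYC lines not used to find them. WT against EV and R323 against EV share no library with the comparison of R149 and R158, although all enter 1 fit and share its estimate of spread. Of the 137 lower genes, 68 (49.6%) were called lower in WT than in EV and 13 (9.49%) higher, where 14.1% and 12.6% of all genes tested were. In R323 against EV, 92 of the 137 (67.2%) were lower and 10 (7.3%) higher, beside 15.7% and 14.1% of all genes. Of the 37 higher genes, 17 (45.9%) were called higher in WT than in EV and 3 (8.11%) lower, and 15 (40.5%) higher and 4 (10.8%) lower in R323. Genes called in neither of these contrasts made up 18.2% of the lower genes, 32.4% of the higher genes and 64.7% of all genes tested. R323 against WT called 122 genes in all (0.892%). Of these, 25 were among the 137 lower genes, 19 lower and 6 higher in R323, where 0.563% and 0.329% of all genes tested were called, and 4 were among the 37 higher genes, all lower in R323.

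Genes chosen by WT against EV alone were then followed in the 2 mutants. Of 690 genes that WT lowered by at least 2-fold, 43 (6.23%) were called lower in R149 than in R158 and 1 higher, with a median log2 difference of -0.45 beside -0.01 over all genes. The sign was negative for 593 of the 690 (85.9%, against 53.2% of all genes tested). The 3 R149 libraries were below the 3 R158 libraries for 222 of them (32.2%, against 8.62% of all genes tested) and above for 11 (1.59%, against 5.35%). The median of these genes relative to EV was -2.02, -1.66 and -1.65 log2 units in R149, against -1.45, -1.32 and -1.21 in R158. R149 and R158 did not overlap, but WT, at -1.8, -1.44 and -1.34, overlapped with both. With replicates 2 and 3 alone the median difference between the mutants was -0.43, without R149 replicate 1 it was -0.39, and with all libraries thinned to the same total it was -0.45. The number of called genes moved more. With the block 81 of the 690 were lower and 2 higher in R149, with DESeq2 70 and 2, and with replicates 2 and 3 alone 141 and 4. With the 6 R149 and R158 libraries alone, where 597 of the 690 were tested, 7 were lower and 1 higher, and with the 4 MYC lines (618 tested) 24 and 1. Leaving out 1 library gave 15 and 17 lower genes for R149 replicates 2 and 3, 21 and 18 for R158 replicates 1 and 3, and 28 each for WT replicate 2 and R323 replicate 2. Lower genes outnumbered higher ones in each of these fits.

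For genes that WT raised, the median difference between the mutants was near 0. Of 242 genes that rose by at least 2-fold in WT, 12 (4.96%) were lower and 9 (3.72%) higher in R149 than in R158, against 1% and 0.271% of all genes, and the median was 0.04 log2 units. Their median level above EV was 1.23, 1.35 and 1.33 log2 units in R149 and 1.19, 1.32 and 1.16 in R158. The libraries of the mutants overlapped and all 6 were below those of WT (1.53, 1.66 and 1.69), which had chosen the genes. The majority among called genes in this group turned with the fit. With the block 13 were lower and 17 higher in R149, with DESeq2 14 and 16, with replicates 2 and 3 alone 19 and 28, with the 6 libraries alone 3 and 6, and without EV replicate 1 11 and 12. Leaving out R149 replicate 1, 2 or 3 gave 11 and 6, 4 and 2, and 6 and 2. Leaving out R158 replicate 1, 2 or 3 gave 8 and 2, 6 and 3, and 8 and 2. Without R323 replicate 3 there were 9 and 5. Called genes in this group thus ran both ways. R149 lay below R158 without overlap for 29 of the 242 (12%, beside 8.62% of all genes) and above it for 52 (21.5%, beside 5.35%). Of the 10015 genes not called between WT and EV, 56 (0.559%) were lower and 17 (0.17%) higher in R149.

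**Figure D5:**
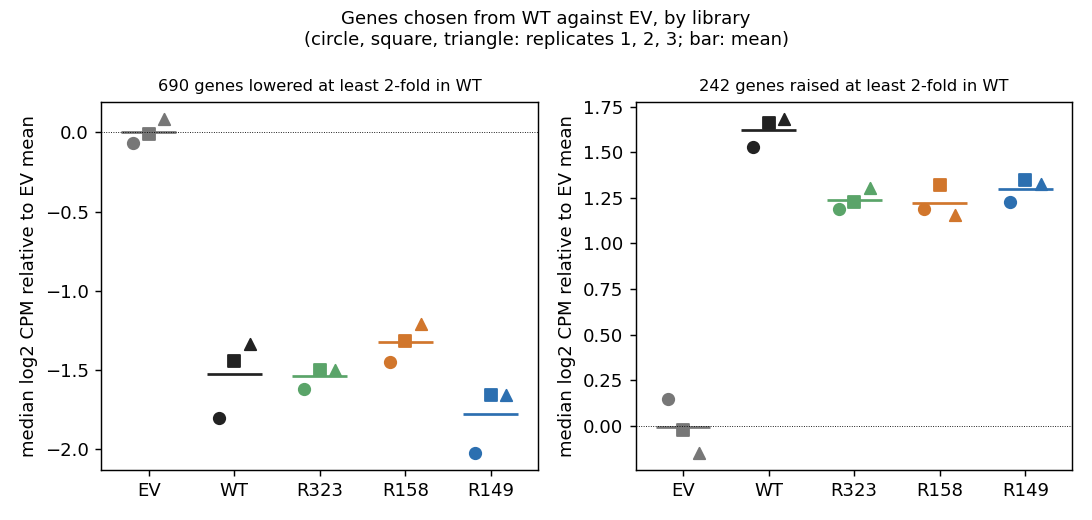
Median log2 CPM relative to the mean of EV (vertical axis) over the 690 genes lowered and the 242 genes raised at least 2-fold in WT, for each library by line (horizontal axis), with bars for the mean of 3. In the left panel R149 (-1.78 ± 0.21) lies below R158 (-1.33 ± 0.12) without overlap, and in the right panel R149 (1.3 ± 0.062) and R158 (1.22 ± 0.086) overlap (SD, n = 3).

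Each mutant's own fold changes, which share the R149 or R158 libraries with the choice of genes, are given only side by side. Over the 137 lower genes the median log2 fold change against EV was -1.47 in R149 and -0.41 in R158, and against WT it was -0.68 and 0.36. Over the 37 higher genes it was 0.84 and -0.13 against EV, and 0.40 and -0.50 against WT. On the median, then, the 2 mutants lay on opposite sides of WT in both groups, R149 further from EV and R158 nearer to it. The genes were chosen for the distance between R149 and R158, which itself favours such a position of WT.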

How the data were processed

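Stranded mRNA libraries were made from column-purified RNA, per the labels' protocols. The deposited values are raw counts per rat Ensembl gene, 1 table per library. TopHat2 2.1.0 and the rat build Rnor_6.0 are listed in the submitters' processing notes. How reads were counted, with which strand setting and on which annotation, is not given in the sources used here. Overlapping genes and genes with near-identical copies are therefore uncertain. Libraries are 3 biological replicates per line, per the series design, and p-values measure the spread between cultures of a line.

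All 15 libraries entered 1 quasi-likelihood fit in edgeR 4.0.16 (R 4.3.3) with the line as the only term, after filterByExpr (minimum 10 counts) and TMM scaling, and p-values were adjusted by Benjamini-Hochberg over 13676 genes, which held 99.98% of counts. CPM are TMM-scaled, and log2 levels use a prior count of 2. SE were derived from the F statistic, and 95% intervals from it with the residual and prior degrees of freedom. The procedure was run on simulated counts. These held no effect of replicate number and no library that stood apart, so the run cannot speak to either. Alternatives used DESeq2 1.42.0 and limma 3.58.1 (voom), other scalings and filters, fewer libraries and thinned counts.

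Replicate numbers come from the titles, which do not say what they share. Deviations from the line means correlated at 0.39, 0.13 and 0.14 between R149 and R158 libraries of equal number, so the numbers were taken as a possible pairing. The reported fit did not use this pairing, and the fit with the replicate block is given as an alternative. Replicates 2 and 3 correlated more strongly across numbers (0.31 and 0.34), so these values bear out the pairing for replicate 1 only. No 2 replicates agreed within counting noise (chi-square per degree of freedom 20.1 to 86.1).

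Identifiers named are the 2 largest rises and the 2 largest falls among called genes that reached a mean of 1 CPM in the higher line and whose R149 and R158 libraries did not overlap. The rule foresaw symbols and gene lists, which need names, and these were not used here. The comparison, lists and rule were chosen with earlier results of these data known.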

Additional observations from a re-analysis of the deposited data

Results flagged for a closer look

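For all 4 identifiers followed above, the effect against EV differed between the R149 and R158 lines, by the contrast between them in edgeR. The 4 were chosen by this same contrast, in which EV cancels out. The difference thus follows from their choice and adds no support to it. The fitted log2 difference of R149 minus R158 was 7.06 for ENSRNOG00000026918, 3.63 for ENSRNOG00000019358, -9.23 for ENSRNOG00000051360 and -9.11 for ENSRNOG00000038115. The first and the last 2 of these fitted values rest on 0 or 1 counts in the lower line. ENSRNOG00000051360 went opposite ways against EV, with a log2 fold change of 3.17 ± 0.34 in R158 (SE, adjusted p 2.52e-05) and -6.06 ± 0.66 in R149 (adjusted p 9.37e-06).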

How the results depend on the processing

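The direction of the 4 identifiers held in all 28 alternatives. ENSRNOG00000026918, ENSRNOG00000019358 and ENSRNOG00000051360 were called in each, with highest adjusted p of 0.0309, 0.0165 and 0.00159, and ENSRNOG00000038115 in 27. Of 112 counts recomputed for the 4 totals, 73 stayed within 1.5 times the reported ones of 174 genes, 37 higher, 137 lower and 92 with at least 2-fold difference. With the replicate block these were 381, 92, 289 and 142, and with replicates 2 and 3 alone 627, 140, 487 and 217. With the 6 R149 and R158 libraries alone they were 42, 13, 29 and 34, and DESeq2 called 326 genes, 80 higher and 246 lower. The 4 MYC lines without EV gave 90 lower genes. Leaving out 1 R149 or R158 library at a time gave 69 to 141 genes, 14 to 30 higher, 55 to 111 lower and 46 to 85 with at least 2-fold difference. Leaving out 1 library of another line, added after the data were seen, gave 122 to 205, 29 to 44, 91 to 163 and 68 to 103. Without replicate 1 of both mutants, likewise added, 100 genes were called, 20 higher and 80 lower. Fewer libraries enter these fits. The cause of the other differences was not tested. Gene lists could not be recomputed without gene names.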
